A study of Bos taurus with 45 samples.

Results

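The comparison described here is that of CSF2 with vehicle among bovine embryos whose sister piece gave a maintained pregnancy, with 9 of the 45 sequenced libraries as its members. Libraries were taken where the recipient was pregnant at day 30 and at day 60 and the total was 1000000 counts or more. That left 5 CSF2 libraries (replicates 1, 2, 3, 9 and 10) and 4 vehicle libraries (replicates 4, 5, 6 and 7), and dropped vehicle replicate 8, which held 137808 counts. Each library came from 1 demi-blastocyst, the piece of a bisected day 7 blastocyst that was kept for RNA while the other piece went to a recipient cow. All embryos were made in vitro with X-sorted sperm, which gives female embryos, and were cultured without serum. The CSF2 embryos had 10 ng/ml of recombinant bovine CSF2 in the medium between day 5 and day 7, and the vehicle embryos had the carrier alone in the same period. Both groups were chosen on an outcome seen after the treatment, so they hold only embryos whose sister piece gave a pregnancy. When a bisection was uneven, the smaller or less intact piece was the one sequenced, per the labels, and the labels give no sire, dam, culture run or sequencing batch. The sample numbers run on over both treatments in stretches of 1 treatment, so a batch that followed them could not be told apart from CSF2.

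CSF2 is a cytokine made by the oviduct and endometrium, best known for its action on myeloid blood cells. Its receptor pairs a ligand-binding chain with a beta chain shared with related interleukins, and signals through Janus kinases, STAT proteins and the MAP kinase and PI3 kinase pathways. In cultured bovine embryos it has been studied for its effects on cell death, on the allocation of cells to the inner cell mass and trophectoderm, and on survival after transfer. The day 7 blastocyst consists of the trophectoderm, which forms the placenta, and the inner cell mass, which gives rise to the epiblast and hypoblast. The deposited table names its genes by Ensembl identifiers only, and 0 of the 24616 identifiers matched the supplied gene table. The markers of these lineages, the receptor chains and the other gene lists could therefore not be looked up, the labelled cell types were not checked, and genes appear by identifier. No sequence is shown for the same reason.

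The 9 libraries differed more in how many genes they held than in how deeply they were sequenced. Totals ranged from 4455133 to 6482307 counts with CSF2 and from 5016623 to 7718254 with vehicle. A gene was taken as read in a library where it had 5 or more counts. By this measure the CSF2 libraries read 3119 genes in replicate 1, 4634 in replicate 2, 6137 in replicate 3, 4697 in replicate 9 and 2097 in replicate 10. The vehicle libraries read 2054 genes in replicate 4, 5055 in replicate 5, 2191 in replicate 6 and 5569 in replicate 7. CSF2 replicate 10 and vehicle replicates 4 and 6 were thus poor in genes. Their totals were 6427278, 5016623 and 6139032 counts, so that vehicle replicate 4 was the shallowest library of its group and CSF2 replicate 10 was close to the deepest of its own. Means were 4137 ± 1562 genes (SD, n = 5) and 3717 ± 1854 genes (SD, n = 4), a difference of 420 that was smaller than the spread within each group (exact permutation test, two-sided, p = 0.667, adjusted p = 0.667). Its sign turned without CSF2 replicate 3 (−80.5 genes), vehicle replicate 4 (−134.9) or vehicle replicate 6 (−89.2). Mean totals were 5735720 ± 918868 counts (SD, n = 5) and 6253640 ± 1110740 counts (SD, n = 4; exact permutation test, two-sided, p = 0.54, adjusted p = 0.667).

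The few most abundant genes took a smaller part of the CSF2 libraries, but the groups overlapped. The 50 genes with the largest mean level over the 9 libraries held 29.1%, 35.6%, 29.4%, 30.6% and 33.6% of the counts in CSF2 replicates 1, 2, 3, 9 and 10. They held 40.2%, 35.6%, 43.0% and 33.1% in vehicle replicates 4, 5, 6 and 7. The 2 libraries with the highest shares, vehicle replicates 6 and 4, were also poor in genes, whereas the equally gene-poor CSF2 replicate 10 stood within the range of its own group. Means were 31.6% ± 2.86 (SD, n = 5) with CSF2 and 38.0% ± 4.46 (SD, n = 4) with vehicle (exact permutation test, two-sided, p = 0.0794, adjusted p = 0.238 over the 3 measures of library makeup). With vehicle replicate 8, of 71.2% and with only 50 genes read, the difference went from −6.35 to −13.0 percentage points (exact permutation test, two-sided, unadjusted p = 0.0397). The smallest p that 5 against 4 libraries can give is 0.0159. Each replicate is a separate embryo, and the p-values measure the spread between these embryos only.

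**Figure D1:**
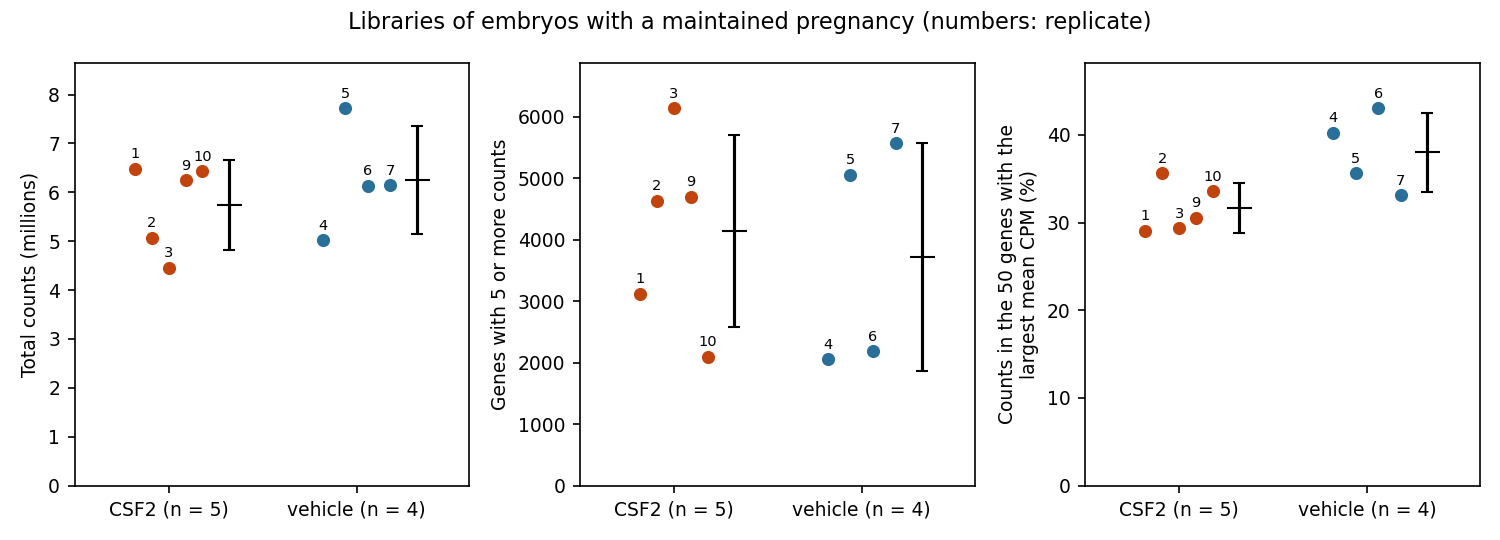
Total counts (units of 1000000), genes with 5 or more counts and share of counts in the 50 genes with the largest mean CPM, for 5 CSF2 and 4 vehicle libraries of maintained pregnancies. Points are libraries with their replicate number, and bars show mean and SD. CSF2 replicate 10 and vehicle replicates 4 and 6 lie at 2054 to 2191 genes, apart from the other 6 libraries at 3119 to 6137.

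Libraries of the same treatment were about as alike as libraries of different treatments. Over the 9775 genes read in at least 1 library, the rank correlation between libraries had a median of 0.367 in the 10 CSF2 pairs (range 0.270 to 0.453), 0.367 in the 6 vehicle pairs (0.341 to 0.442) and 0.365 in the 20 mixed pairs (0.294 to 0.453). These correlations are across genes within pairs of libraries and share the many genes at 0, so they are given as a description. The 21 pairs that held a gene-poor library lay between 0.270 and 0.380, and the 15 pairs among the other 6 libraries between 0.364 and 0.453.

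Most genes were read in some embryos and not in others, whatever the treatment. Of the 9775 genes read, 2512 (25.7%) were read in a single library and 431 (4.41%) in all 9. All 5 CSF2 embryos read 840 genes and all 4 vehicle embryos read 815. The 431 genes common to both sets were 51.3% of the first set and 52.9% of the second. Reading confined to 1 treatment was common but rested on few embryos: 2202 genes were read with CSF2 only and 1284 with vehicle only, and 1469 and 1043 of these were read in 1 embryo. The unequal group sizes, 5 against 4, favour the first count.

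A full contrast in reading was rare. Among the 9775 genes read, 6 were read in all 5 CSF2 embryos and in no vehicle embryo. Another 41 were read in 4 of 5 and in no vehicle embryo. In the other direction, 0 of the 9775 were read in all 4 vehicle embryos and in no CSF2 embryo, and 34 were read in 3 of 4. The conditions 4 of 5 and 3 of 4 are unlike, so the counts 41 and 34 do not show an excess with either treatment. Where no count at all was allowed in the second group, 1 gene remained, ENSBTAG00000021090, which is named because it is the whole of that count. It had 468, 372, 445, 179 and 69 counts in CSF2 replicates 1, 2, 3, 9 and 10 and 0 counts in the 4 vehicle libraries. In CPM, counts per 1000000 of the library total, this was 57.0 ± 36.3 (SD, n = 5) with CSF2. A limit of 3 counts over the vehicle group allows 0.120 CPM there. The summed CSF2 level of 53.5 CPM was thus at least 446-fold higher, for counting error only. Since the gene was picked for its 0 vehicle counts, this fold is only a description. The gene was not called in the test of levels (p = 0.0159, adjusted p = 1, edgeR), nor in the test of the difference from not established embryos (adjusted p = 1, edgeR). In embryos whose pregnancy was not established, 2 of 12 CSF2 and 4 of 14 vehicle embryos read it. Leaving out an embryo removes 1 condition, so that the count can only stay or rise. It was 3 without CSF2 replicate 3 (2 genes read with CSF2 and 1 with vehicle) and 14 without vehicle replicate 4 (3 and 11), with the other 7 embryos between.

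**Figure D2:**
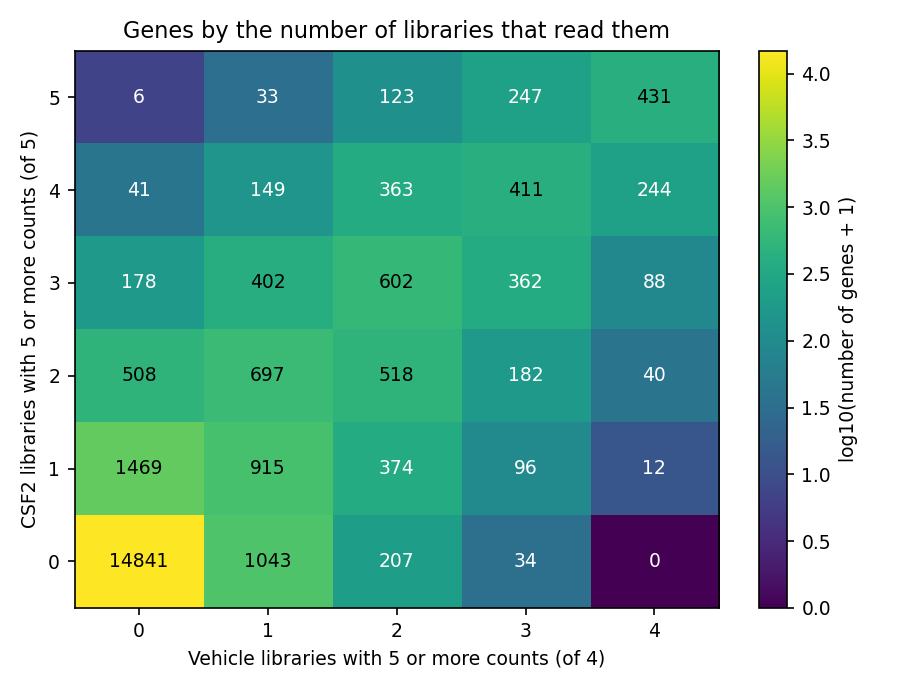
Number of genes by how many of the 5 CSF2 libraries (vertical) and how many of the 4 vehicle libraries (horizontal) had 5 or more counts, with colour on a log10 scale. Of the corner cells, 431 genes were read in all 9 libraries, 6 in all CSF2 and no vehicle libraries, and 0 in all vehicle and no CSF2 libraries.

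Differences in level were then tested gene by gene. Of 4056 genes tested, 2 were lower with CSF2 (0.0493% of those tested) and 0 were higher (0%) at an adjusted p below 0.05 (edgeR quasi-likelihood test, Benjamini-Hochberg adjustment). At an unadjusted p below 0.05 there were 43 higher and 15 lower genes, 58 in all or 1.43%. In such bulk samples fewer cells of a type and less RNA per cell cannot be told apart. Both called genes were among the most abundant in the embryo, at the fourth and second rank of mean level over the 9 libraries.

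ENSBTAG00000043571 was the gene with the smallest p. It stood at 12685, 16841, 13022, 6358 and 8849 CPM in CSF2 replicates 1, 2, 3, 9 and 10. In vehicle replicates 4, 5, 6 and 7 it stood at 25779, 18057, 29111 and 21675 CPM. Every CSF2 embryo was below every vehicle embryo, with CSF2 replicate 9 the lowest and vehicle replicate 6 the highest. The means were 11551 ± 4053 CPM (SD, n = 5) and 23656 ± 4815 CPM (SD, n = 4), a ratio of 0.488. The fitted log2 change was −1.20 with a standard error of 0.27 (adjusted p = 0.0352, edgeR). Vehicle replicate 8, left out for its depth, had 27393 CPM of the gene, but it read only 50 genes, so its value is not comparable with the others.

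ENSBTAG00000043563 was the other called gene. Its levels were 27648, 39687, 22723, 16266 and 29306 CPM in CSF2 replicates 1, 2, 3, 9 and 10, and 46593, 38727, 58627 and 36054 CPM in vehicle replicates 4, 5, 6 and 7. The groups overlapped, since CSF2 replicate 2 was above vehicle replicates 5 and 7. Means were 27126 ± 8662 CPM (SD, n = 5) and 45000 ± 10126 CPM (SD, n = 4), a ratio of 0.603. The fitted log2 change was −0.89 with a standard error of 0.21 (adjusted p = 0.0434, edgeR). Vehicle replicate 8 had 179199 CPM of it, again in a library that read only 50 genes and is not comparable.

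Both calls were fragile, although the direction held in each fit that was made. In edgeR they ended with library totals as the scaling (adjusted p = 0.168 for ENSBTAG00000043571 and 0.302 for ENSBTAG00000043563), with DESeq2's size factors (0.102 and 0.323) and with no filter on low counts (0.509 and 0.669). With all 45 libraries the log2 changes were −3.61 and −4.91, with an adjusted p of 1 for both (edgeR). In a fit of the 9 maintained libraries alone ENSBTAG00000043571 was called and ENSBTAG00000043563 was not (adjusted p = 3.35e-08 and 0.943, edgeR). In edgeR both calls ended without CSF2 replicate 1, 3, 9 or 10 and without vehicle replicate 4, 5, 6 or 7. Both stayed without CSF2 replicate 2, with adjusted p of 0.00546 for ENSBTAG00000043571 and 0.00635 for ENSBTAG00000043563. Over the 9 such fits the log2 change lay between −1.29 and −0.96 for the first gene and between −0.96 and −0.66 for the second. Without the 3 gene-poor libraries the changes were −0.82 and −0.61 (adjusted p = 1 for both, edgeR), a setting chosen after seeing the data.

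**Figure D3:**
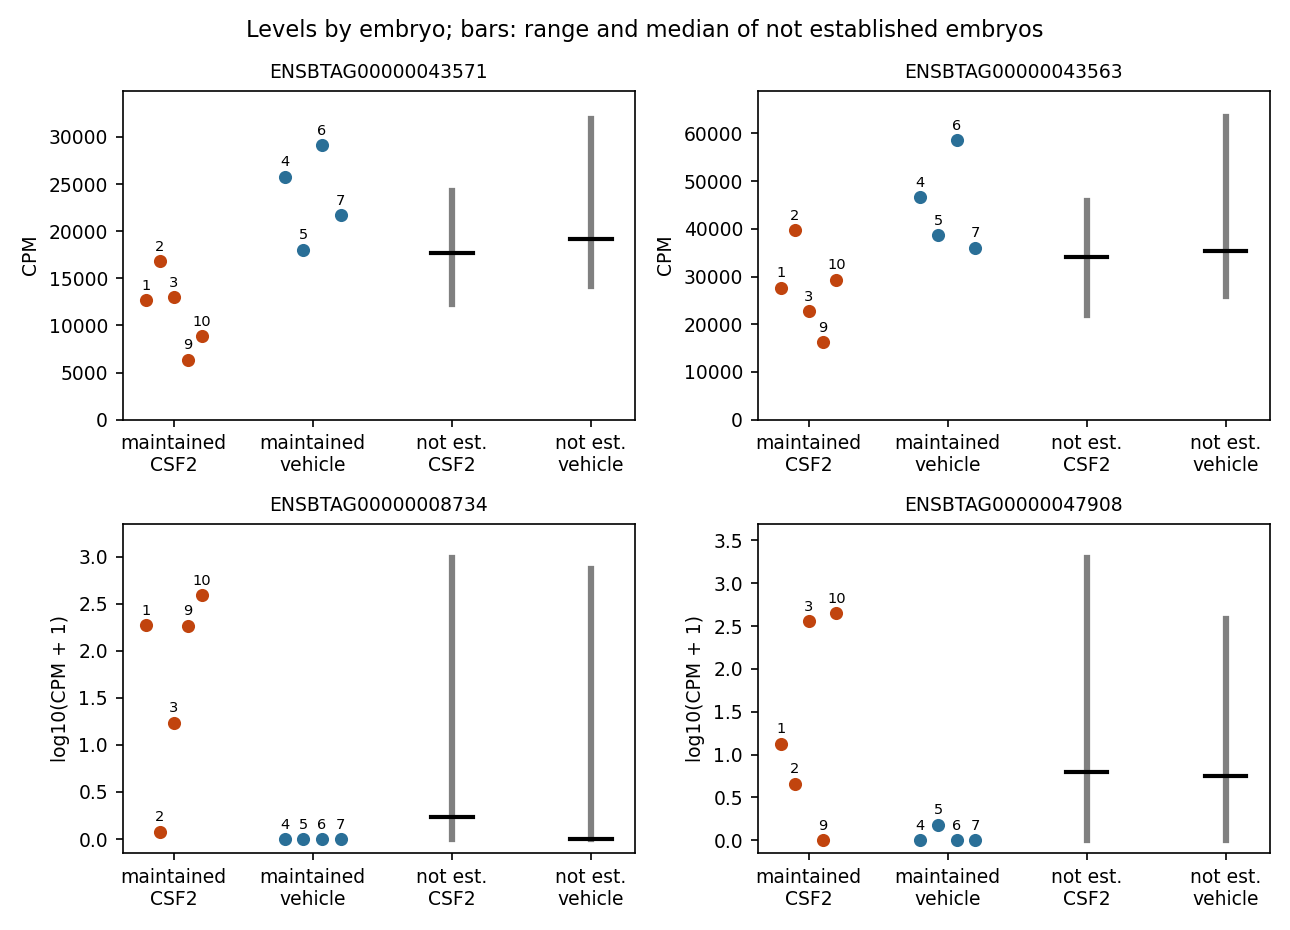
Levels of the 2 called genes (top, CPM) and of the pair with the smallest p on the higher side (bottom, log10 of CPM + 1). Points are maintained embryos with their replicate number, and grey bars with a black line give the range and median of 12 CSF2 and 14 vehicle embryos whose pregnancy was not established. ENSBTAG00000043571 lies at 6358 to 16841 CPM with CSF2 and 18057 to 29111 CPM with vehicle.

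The called genes belonged to a run of abundant genes with neighbouring identifiers, most of which had fitted changes below 0. The run is the 78 genes of the table that share all but the last 2 digits of their identifiers with the called genes. It was picked after the values were seen, as the most common such set among the 25 genes with the largest mean CPM. Of its genes, 16 were tested. These genes made up 9 of the 10 and 14 of the 25 genes with the largest mean CPM. The share of abundant genes given earlier includes them, so that share and the run are not separate results. The fitted change was below 0 for 15 of the 16, against 1866 of all 4056 tested. An unadjusted p below 0.05 with a lower level was found for 6 of the 16, against 15 of the 4056, and the 2 called genes were the only calls among the 4056. The 6 include the 2 called genes, and the run was picked with the values known. The 4056 were also mostly less abundant genes with larger errors, so the counts are unlike and give no support. The median log2 change of the 16 was −0.60, against 0.16 for all 4056 tested genes. With the library totals as the only scaling, which raised the median of all genes to 0.28, 15 were again below 0, with a median of −0.45. Summed, the 78 genes held 16.8%, 25.8%, 18.1%, 18.2% and 22.3% of the counts in CSF2 replicates 1, 2, 3, 9 and 10. They held 28.2%, 25.8%, 33.6% and 23.5% in vehicle replicates 4, 5, 6 and 7. The groups overlapped at CSF2 replicate 2, and means were 20.3% ± 3.73 (SD, n = 5) and 27.8% ± 4.34 (SD, n = 4). The highest shares, 33.6% and 28.2%, were in vehicle libraries with 2191 and 2054 genes read, and the part of gene number in this difference was not tested. Since the run was chosen for holding abundant genes, with the values known, no test is given for the sum.

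The other abundant genes were split in direction. Of the 74 tested genes with a mean of 1000 CPM or more, 73 were read in all 9 libraries. Within this class 15 genes had identifier numbers of the run, all with a fitted change below 0 and a median of −0.60. Of the other 59, 30 were below 0, and their median change was −0.0018. The run was picked after the values were seen and its genes were measured in the same 9 libraries, so this contrast is only a description. The class as a whole had a median of −0.11 with a middle range of −0.43 to 0.34. Its 6 genes with an unadjusted p below 0.05 were all lower. They are the same 6 genes of the run that were counted before, so they are not a separate result. With library totals as the only scaling the median of the class was 0.02.

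Less abundant genes gave wider changes with larger errors. The 1721 genes of 100 to 1000 CPM had a median log2 change of −0.04 (0.12 with library totals) and a median standard error of 2.31, and 338 of them were read in all 9 libraries. The 2190 genes of 10 to 100 CPM had a median change of 0.40 and a median standard error of 3.22, with 17 read in all 9. In that class all 30 genes with an unadjusted p below 0.05 were higher with CSF2, and 0 were called. The filter on low counts bears on this direction, since it asked for a gene in at least 4 libraries. A gene absent with vehicle could pass with 4 of the 5 CSF2 libraries, but a gene absent with CSF2 only with all 4 vehicle libraries. The same holds for the other counts of tested genes that were higher with CSF2 and at or near 0 with vehicle. Single embryos carried much of each mean: for the median gene tested, 1 library held 57.6% of the CSF2 group's sum and 69.5% of the vehicle group's sum. For the class above 1000 CPM these shares were 30.0% and 36.1%.

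**Figure D4:**
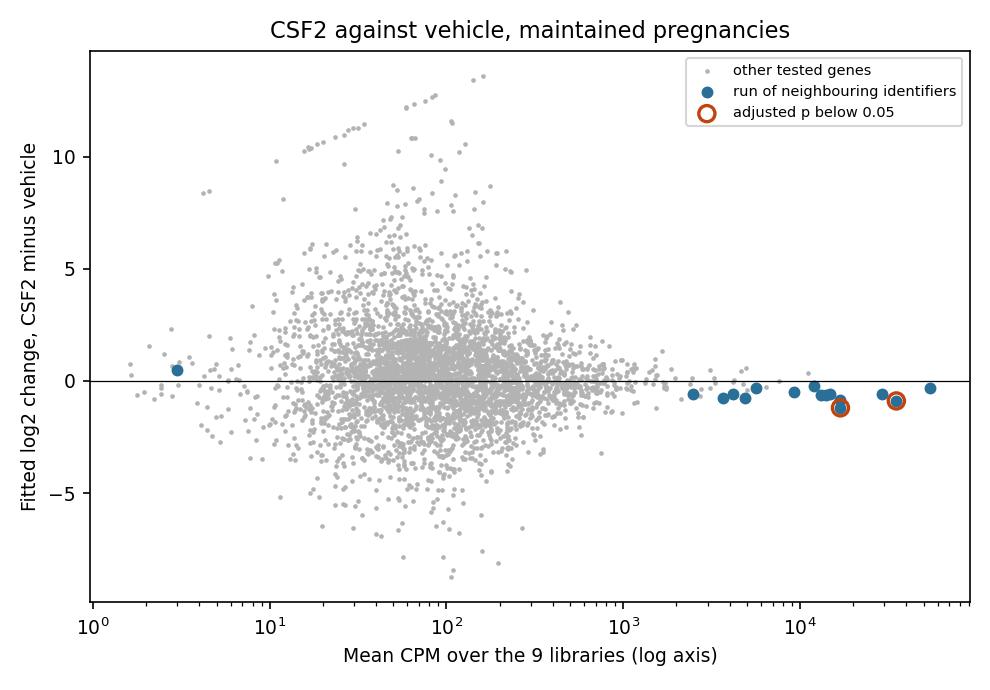
Fitted log2 change between CSF2 and vehicle (vertical) against mean CPM over the 9 maintained libraries (horizontal, log axis) for 4056 genes. The 16 tested genes of the run with neighbouring identifiers are blue, 15 of them below 0, and circles mark the 2 genes with an adjusted p below 0.05, at −1.20 and −0.89.

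On the higher side 0 genes passed the test, and the 10 with the smallest p had an adjusted p of 1 in edgeR. ENSBTAG00000008734 had 1200, 1, 72, 1142 and 2503 counts in CSF2 replicates 1, 2, 3, 9 and 10 and 0 counts in each vehicle library. That is 155 ± 158 CPM (SD, n = 5) with CSF2, and replicate 10 held 50.3% of the sum. Against the limit of 0.120 CPM in the vehicle group the summed level of 171 CPM was at least 1430-fold higher, for counting error only. CSF2 replicate 2 stood at 0.197 CPM. The gene was picked by its p, so the fold is only a description. With an unadjusted p of 0.00348 and an adjusted p of 1 (edgeR) it was not called. ENSBTAG00000047908 had 80, 18, 1605, 0 and 2881 counts in CSF2 replicates 1, 2, 3, 9 and 10, and vehicle replicate 5 had 4 counts where the other 3 vehicle libraries had 0. Its levels, 165 ± 221 CPM (SD, n = 5) and 0.130 ± 0.259 CPM (SD, n = 4), were not called different (adjusted p = 1, edgeR). CSF2 replicate 9 stood with the vehicle embryos. Among the 10 genes with the smallest p on the lower side, 4 had a mean above 1000 CPM and 5 were read in all 9 libraries.

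Across all tested genes, CPM values of the groups did not overlap for 26 genes higher with CSF2 (0.641% of those tested) and for 18 lower (0.444%). In 25 of the 26, each CSF2 embryo read the gene, which follows largely from the selection, since each CSF2 level had to be above 0.

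Other tests drew different genes from the same libraries. DESeq2 called 22 genes of the 3908 to which it gave an adjusted p (0.563%), all higher with CSF2, and 17 of them had 0 counts in the vehicle libraries. Each was read in 4 or 5 CSF2 embryos and in at most 1 vehicle embryo. Limma voom called 8 higher and 4 lower (12 in all, 0.296%), of which 6 were also called by DESeq2. The 2 genes called by edgeR included 1 of voom's calls and 0 of DESeq2's. ENSBTAG00000043571 was the shared one, with an adjusted p of 0.0446 in voom (log2 change −1.04) and 0.168 in DESeq2 (−1.15). ENSBTAG00000043563 had adjusted p of 0.417 in voom (−0.82) and 1 in DESeq2 (−0.82). ENSBTAG00000008734 and ENSBTAG00000047908, not called by edgeR, were called by DESeq2 with adjusted p of 5.1e-15 and 0.0092. Voom called neither of them (adjusted p = 0.205 and 0.553). For ENSBTAG00000008734 the vehicle group had 0 counts, and the fitted log2 change differed widely between the tests. Its size in DESeq2 is therefore not given, and the small p there is not taken as a firm call.

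The same contrast was read in embryos whose pregnancy was not established, with 12 CSF2 and 14 vehicle libraries, to see where maintained embryos differed. No library is shared between these contrasts. In that set 18 of the 4056 genes were called (0.444%), 7 higher and 11 lower, and the genes called in maintained embryos were not among them. ENSBTAG00000043571 had a median of 17660 CPM (range 12283 to 24246) with CSF2 and 19141 CPM (14190 to 31870) with vehicle there, a log2 change of −0.06 with a standard error of 0.16. ENSBTAG00000043563 had 34130 CPM (21960 to 45911) and 35441 CPM (25912 to 63360), a log2 change of −0.16 with a standard error of 0.12. For the first gene, maintained CSF2 replicates 9 and 10 (6358 and 8849 CPM) lay below the range of not established CSF2 embryos, and the other CSF2 replicates inside it. For the second gene, CSF2 replicate 9 (16266 CPM) alone lay below that range. The maintained vehicle embryos lay inside the range of not established vehicle embryos for both genes. Low levels were not confined to maintained embryos: among 5 embryos of lost pregnancies the lowest level of the first gene was 10603.5 CPM. The summed share of the 78 neighbouring genes had a median of 24.4% (15.5 to 28.97) with CSF2 and 24.7% (18.8 to 37.2) with vehicle.

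The difference between the effects was tested in the same model. Of 4056 genes, 0 had a difference with an adjusted p below 0.05 (0%), 100 had an unadjusted p below 0.05, and the smallest adjusted p was 0.511 (edgeR). The difference of log2 changes was −1.14 with a standard error of 0.31 for ENSBTAG00000043571 (p = 0.000252, adjusted p = 0.511, edgeR). For ENSBTAG00000043563 it was −0.73 with a standard error of 0.24 (p = 0.00249, adjusted p = 1, edgeR). A different response of the called genes in maintained and not established embryos was thus not shown by this test. For the difference DESeq2 called 35 genes (0.896%), and edgeR with its bias-adjusted deviance called 20 (0.493%), with an adjusted p of 0.0424 for ENSBTAG00000043571 in the latter.

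The genes with the smallest p for this difference were read in few embryos of some groups. ENSBTAG00000046033 had 5274, 15, 359, 0 and 3596 counts in CSF2 replicates 1, 2, 3, 9 and 10 and 0 counts in the 4 vehicle libraries of maintained pregnancies. In not established embryos it was read in 0 of 12 with CSF2 and in 2 of 14 with vehicle, and 1 vehicle embryo held 99.1% of that sum (p = 0.000185, adjusted p = 0.511, edgeR). ENSBTAG00000020850 was read, among maintained embryos, in 3 of 5 with CSF2 and 1 of 4 with vehicle, and among not established embryos in 0 of 12 and 3 of 14 (adjusted p = 1, edgeR). On the other side, ENSBTAG00000003209 was read in 4 of 5 and 2 of 4 maintained embryos. In not established embryos 5 of 12 with CSF2 read it and 0 of 14 with vehicle (adjusted p = 0.953, edgeR). In each of these genes a group with few or no counts sets the fitted size, which is therefore not given.

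Across all 4056 genes the fitted changes with CSF2 in the 2 outcomes had a Pearson correlation of −0.02, and across the 74 genes of 1000 CPM or more it was −0.03. Genes are not independent replicates, and the wide errors of sparse genes enter the first value.

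**Figure D5:**
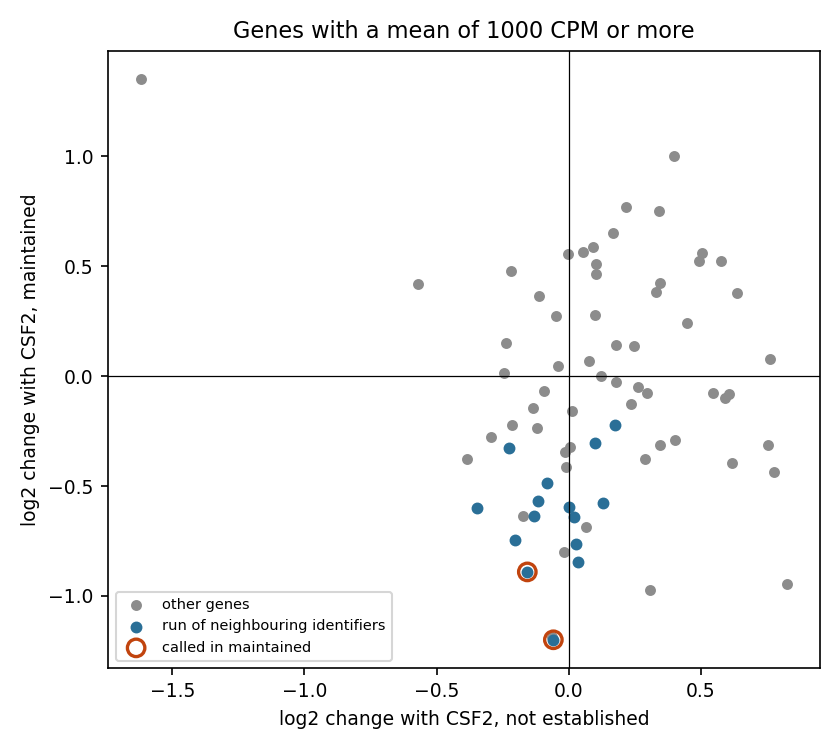
Fitted log2 change with CSF2 in maintained embryos (vertical) against that in not established embryos (horizontal) for the 74 genes with a mean of 1000 CPM or more. The 15 genes of the run with neighbouring identifiers are blue and all lie below 0 on the vertical axis, around a median of −0.60, and circles mark the 2 called genes. The run was picked after the values were seen.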

How the data were processed

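The authors deposited 1 table of raw read counts per Ensembl gene for 45 libraries. Total RNA was extracted with a column kit and libraries were made from it with a NuGEN SoLo kit that depletes chosen bovine transcripts, per the labels' protocols. The submitters' processing notes name UMD3.1, bosTau8 and edgeR; the sources used here do not give the aligner, counter, strand use or duplicate handling. Columns were matched to samples by title and groups taken from the labels.

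The 40 libraries of 1000000 counts or more entered 1 fit with a mean for each outcome and treatment (edgeR 4.0.16 in R 4.3.3, TMM scaling with factors from 0.91 to 1.17 in the 9 maintained libraries, robust quasi-likelihood F test, Benjamini-Hochberg at 0.05). Genes were kept by filterByExpr over the 9 maintained libraries. A replicate is an embryo. CPM uses the library total. The standard error given with an edgeR log2 change is the size of that change over the square root of its F statistic. Alternatives were DESeq2 1.42.0, limma 3.58.1 voom, other scalings, no filter, all 45 libraries, and each library left out. Library measures were compared by exact permutation in Python 3.11.15 with scipy 1.17.1. The gene test was tested on simulated counts, where it called few of the changed genes at the spread of these libraries.

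The rule for named genes asked for 10 in each direction where they have symbols; without symbols at most 2 higher and 2 lower by smallest p are given per comparison. The planned gene lists, lineage markers and the mitochondrial share need names and were not run. Members, lists and tests were chosen with earlier results of these data known.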

Additional observations from a re-analysis of the deposited data

Results flagged for a closer look

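Among 20 groups of 4 or 5 libraries checked for a library far from the rest, by the gap to its neighbour over the range of the group, 3 were flagged, where chance flags about 1 in 20. That rate does not apply to groups with many zeros: 3 zeros and 1 other value are always flagged, as in both vehicle groups here, and groups of zeros never are. ENSBTAG00000047908 had 0.518 CPM in vehicle replicate 5 and 0 in the other vehicle libraries, a difference of 4 counts. ENSBTAG00000020850 had 945 CPM in CSF2 replicate 10, which held 90.8% of the CSF2 sum. The same gene had 106 CPM in vehicle replicate 7 and 0 CPM in the other vehicle libraries.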

How the results depend on the processing

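No paired analysis was possible because the sample numbers run on over both treatments, so that the maintained CSF2 and vehicle embryos share 0 replicate numbers. The 2 calls between treatments became 0 with all 45 libraries, with DESeq2's size factors or library totals in edgeR, with no filter on low counts and without the 3 gene-poor libraries (the last added after seeing the data); they became 12 with voom and 22 with DESeq2. The cause was not tested. The count was 2 with the 9 maintained libraries alone, where 1 of the 2 calls was shared, ENSBTAG00000043571. It was also 2 with bias-adjusted deviance and at an adjusted p of 0.10. Leaving out each library gave 0 to 2. The 0 calls for the difference of effects became 20 with bias-adjusted deviance and 35 with DESeq2, and were 0 with each library left out and in the other 8 settings.

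Leaving out each library moved the difference in genes read to between −134.9 and 1037. The share of counts in abundant genes differed by −6.35 percentage points. Its alternatives were all added after seeing the data. The difference was −7.97 to −4.67 without each library in turn (exact permutation tests, p = 0.0571 to 0.179), −6.29 in the 10 most abundant genes (p = 0.0476) and −13.0 with vehicle replicate 8 (p = 0.0397). Of the 10 most abundant genes, 9 belonged to the run of neighbouring identifiers. Genes read in every embryo of 1 treatment with no count in the other numbered 3 at a minimum of 1 count, and 3 to 14 with each library left out. Leaving out a CSF2 library removed ENSBTAG00000008734 or ENSBTAG00000047908 from the tested genes in 4 of 5 fits each.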
